A study of Mus musculus with 2 samples.

Results

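The mitotic milk-expressing cells of the C3-TAg mammary gland are 567 cells that carried casein transcripts and transcripts of the mitotic cycle at the same time. They were chosen by a fixed rule from the counts of unique molecular identifiers (UMIs) in the C3-TAg library. A barcode was kept with at least 500 detected genes, at least 1000 UMIs and at most 10% of UMIs from mitochondrially encoded genes. It counted as receptor-low with under 5 UMIs per 10000 from Areg, Pgr, Esr1 and Cited1, genes of hormone-sensing luminal cells. A receptor-low cell was milk-expressing when the 4 casein genes Csn1s1, Csn1s2a, Csn2 and Csn3 held at least 0.5% of its UMIs. It was mitotic when Mki67, Top2a, Cdk1, Ccnb1, Birc5, Ube2c, Cenpf and Nusap1 together held at least 10 UMIs per 10000. The rule found 567 members among 8458 kept C3-TAg cells, 6.70% of them (exact binomial interval 6.18 to 7.26%), and among 15864 kept cells of both libraries. The class is a range of 2 scores and not a cell type of its own, and its cells are compared with the 2060 milk-expressing C3-TAg cells below the mitotic limit.

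Luminal mammary epithelial cells were collected by flow sorting from FVB/NJ mice aged 3.5 months and sequenced from the 3′ end of transcripts after Chromium capture. The C3-TAg group came from Sox9-GFP;C3-TAg animals and the WT group from Sox9-GFP animals, so both carried the reporter and only the first carried the T antigen transgene. In this transgene the promoter of a rat prostate steroid-binding protein gene drives a polyomavirus T antigen, which binds the Rb and p53 tumour suppressor proteins. Each group was 1 library, with 9575 barcodes for C3-TAg and 8993 for WT, and about 10000 cells were submitted for each. Neither the number of animals nor the sort gate was stated in the sources used here. The transcripts of the reporter and of T antigen were not measured. With 1 library per group there was no replicate check and no test. Levels are counts per 1000000 UMIs summed over a class (CPM) with exact Poisson intervals, shares carry exact binomial intervals and ratios exact conditional Poisson intervals. All are 95% intervals that cover counting error only.

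A dividing cell copies its DNA in S phase, when it makes new histones, and then passes through G2 into mitosis, in which cyclin B with its kinase CDK1 drives chromosome condensation and spindle assembly. The anaphase-promoting complex, an ubiquitin ligase, ends mitosis by marking cyclins and other proteins for destruction. Rb family proteins hold the E2F factors that switch on S phase genes, and a related repressor complex holds the later mitotic genes through the cell cycle homology region of their promoters. Caseins are the main proteins of milk, made by secretory alveolar cells under prolactin, which acts through the factor STAT5. In the mammary gland, proliferation and milk production are usually successive steps of alveolar development.

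The promoters of the genes behind the rule were searched for letters through which these programs are known to be controlled. In RefSeq promoters of 300 bases on GRCm38.p6, from 250 bases before to 50 bases after a gene's start, all 8 mitotic genes and 3 of the 4 caseins had an entry. TTTGAA, the core letters of the cell cycle homology region, stood on either strand in 5 of the 8 mitotic promoters and in 2 of the 3 casein promoters. It stood in 20 of 25 matched promoters of kinesin, spindle and cytokinesis genes, 9 of 20 of kinase, cyclin and anaphase-promoting genes, 10 of 22 of centromere genes and 5 of 36 of replication genes. The share over all 27018 promoters was 18.1%. CCAAT, the letters bound by the factor NF-Y, stood in 6 of the 8 mitotic and 2 of the 3 casein promoters and in 37.9% of all. Birc5 and Nusap1 held neither motif. Neither motif thus parts the mitotic from the casein genes of the rule. TTCNNNGAA, the letters of a STAT binding site, stood in 3 of the 3 casein promoters, in 0 of the 8 mitotic ones and in 8.47% of all. The matches were searched on both strands, are a description of these windows only and are no evidence that a factor was bound. Top2a and Ube2c, the mitotic genes of the rule with the most CCAAT matches, are shown with Csn2 as the milk gene, with matches in capitals. In the first 2 the capitals mark TTTGAA and matches of the NF-Y letters. They also mark TTCGAA, a variant of the first motif that 1.57% of all promoters held. In Csn2 they mark TTCNNNGAA only, and matches of the other motifs are left in lower case. In Ube2c, CCAAT matches on opposite strands overlap at 1 place.
Top2a, chr11:99024140-99024439, minus strand: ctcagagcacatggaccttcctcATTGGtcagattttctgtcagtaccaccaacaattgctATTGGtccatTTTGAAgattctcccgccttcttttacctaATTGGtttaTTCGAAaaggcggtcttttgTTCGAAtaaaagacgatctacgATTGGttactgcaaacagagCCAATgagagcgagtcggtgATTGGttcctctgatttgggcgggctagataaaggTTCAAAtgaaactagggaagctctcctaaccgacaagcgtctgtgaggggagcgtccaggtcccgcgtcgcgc
Ube2c, chr2:164769679-164769978, plus strand: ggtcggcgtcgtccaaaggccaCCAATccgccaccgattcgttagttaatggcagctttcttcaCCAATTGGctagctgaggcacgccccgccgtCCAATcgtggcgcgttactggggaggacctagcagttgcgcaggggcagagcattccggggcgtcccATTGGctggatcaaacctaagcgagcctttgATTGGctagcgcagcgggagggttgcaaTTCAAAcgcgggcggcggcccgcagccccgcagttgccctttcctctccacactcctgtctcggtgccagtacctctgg
Csn2, chr5:87699376-87699675, minus strand: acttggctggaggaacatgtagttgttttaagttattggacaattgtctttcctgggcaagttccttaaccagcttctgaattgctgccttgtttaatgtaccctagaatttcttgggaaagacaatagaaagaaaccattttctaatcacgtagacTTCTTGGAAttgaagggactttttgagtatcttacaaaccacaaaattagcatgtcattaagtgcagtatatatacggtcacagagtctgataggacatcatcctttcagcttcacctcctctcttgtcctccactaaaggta
The Top2a window held 2 TTTGAA, 2 TTCGAA and 6 CCAAT matches, the Ube2c window 1 TTTGAA and 6 CCAAT matches and the Csn2 window 1 TTCNNNGAA match.

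**Figure D1:**
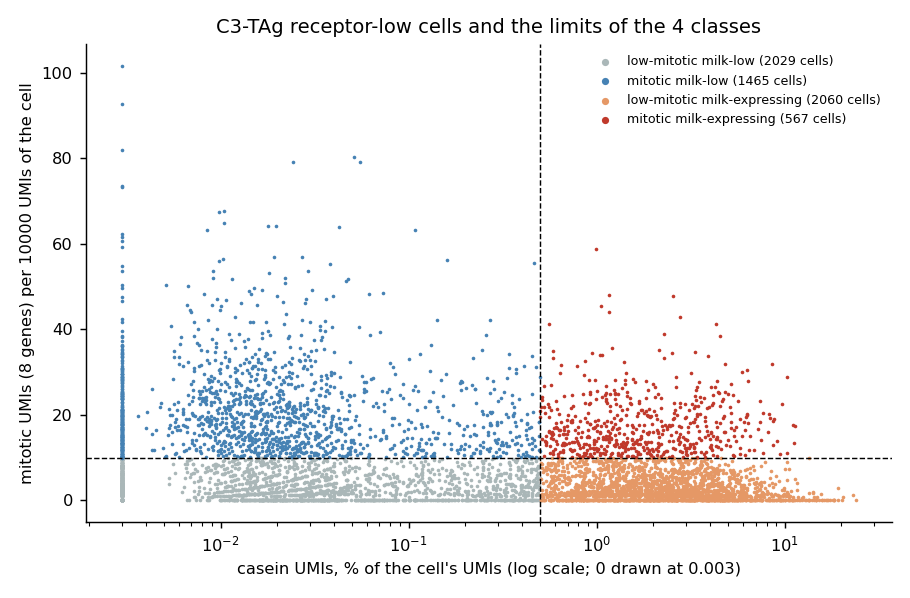
Each point is 1 of the 6121 receptor-low C3-TAg cells, placed by its casein share in percent of UMIs (log axis) and its mitotic UMIs of 8 genes per 10000. The dashed lines at 0.5% and 10 per 10000 bound the 4 classes, and the 567 members form the upper right field with no gap to their neighbours.

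The values that the rule used are given as a description. Members had a median casein share of 1.61%, from 0.50 to 11.3%, and a median of 16.0 mitotic UMIs per 10000, from 10.1 to 58.9. The low-mitotic milk-expressing cells had a median casein share of 2.16% and 2.003 mitotic UMIs per 10000. Median casein per cell was nearly the same in both, at 222 and 231 UMIs, with means of 341 and 365. Members held more UMIs in all, with medians of 13070 and 9862. The limits cut through continuous ranges. Of the milk-expressing cells, 155 lay at 8 to under 10 mitotic UMIs per 10000 and 101 at 10 to under 12, with Top2a at 174 CPM just outside and 276 CPM just inside. Of the mitotic cells, 34 lay at 0.4 to under 0.5% casein and 38 at 0.5 to under 0.6%.

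Free RNA in droplets can give casein UMIs to cells that make none. C3-TAg cells with at least 20 receptor gene UMIs per 10000 therefore served as a background. Whether their casein UMIs came from free RNA, from doublets or from the cells themselves was not tested. Among these 1510 cells the median casein share was 0.0144%, and 4.24% reached the milk limit (3.28 to 5.38%) while 2.65% reached the mitotic limit (1.90 to 3.59%). Their median depth was 8043 UMIs. By the rule, every member lay above these medians in both scores. The mix of caseins in the members was 42.8% Csn2, 24.8% Csn1s1, 19.3% Csn1s2a and 13.1% Csn3, and that of the background cells was 41.9%, 25.1%, 20.2% and 12.9%. In mitotic milk-low cells it was 35.6%, 30.2%, 9.46% and 24.7%. The pooled mix of the background cells rests on few of them. Their median was 1 casein UMI and their mean 17.0, 64 of the 1510 cells reached the milk limit and 10.9% were called doublets, so it does not describe the typical background cell.

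The 5 markers of the class were counted in cells thinned to 2000 UMIs. The rule used 4 of them, Csn2, Top2a, Birc5 and Ube2c, so their shares are a description, and only Hist1h2ap was outside it. Csn2, beta-casein, had a UMI in 98.2% of members and 98.1% of low-mitotic milk-expressing cells, against 17.2% of the background cells. Top2a, the topoisomerase that untangles chromosomes, had one in 52.0% of members and 9.95% of low-mitotic cells. Birc5, survivin of the chromosomal passenger complex, was found in 41.3% and 8.69%, and Ube2c, the ubiquitin carrier of the anaphase-promoting complex, in 39.7% and 8.59%. Hist1h2ap, an H2A histone made in S phase, was found in 28.4% (24.7 to 32.3%) and 2.28% (1.68 to 3.02%). In the background cells these 4 genes had a UMI in 4.44%, 2.65%, 1.86% and 1.33%. Without thinning the shares among members were 99.8% for Csn2, 91.0% for Top2a, 94.7% for Birc5, 83.1% for Ube2c and 60.3% for Hist1h2ap.

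Cells that met both limits came almost wholly from the C3-TAg library. In WT, 2 of 3811 milk-expressing receptor-low cells reached the mitotic limit, 0.0525% (0.00636 to 0.189%), against 21.6% of 2627 in C3-TAg (20.02 to 23.21%). Library and genotype cannot be told apart here.

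Within the C3-TAg gland, mitotic cells were less frequent where casein was higher. The mitotic limit was reached by 41.9% of milk-low receptor-low cells (1465 of 3494, 40.3 to 43.6%), so members made up 27.9% of all mitotic receptor-low cells (26.0 to 29.9%). Cells with under 0.02% casein reached it in 47.2% (44.8 to 49.6%), cells from 0.5 to under 1% in 28.5% (24.7 to 32.5%), cells from 2 to under 4% in 18.3% (15.6 to 21.3%) and cells of 8% or more in 10.6% (6.03 to 16.8%). The decline went on through the milk-expressing range and did not start at its limit. Median depth moved with casein too, from 8837 UMIs in the lowest bin and 8023 in the next to 12549 in the highest. With the mitotic limit applied to cells thinned to 2000 UMIs, the shares ran from 50.6% in the lowest to 11.3% in the highest bin. At that depth the limit is 2 mitotic UMIs, so counting error can carry cells across it. The casein bins and the receptor limit were kept from all UMIs there. Because casein UMIs are part of the total, a high casein share lowers every other share of the cell.

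**Figure D2:**
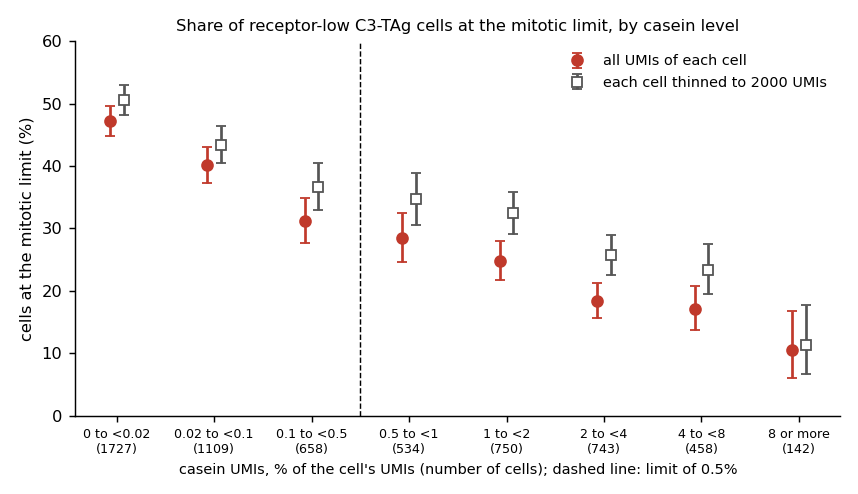
The share of receptor-low C3-TAg cells at the mitotic limit, in percent, is plotted against casein share from all UMIs, with exact binomial 95% intervals. Mitotic counts are from all UMIs (filled circles) or from cells thinned to 2000 UMIs (open squares). The share falls from 47.2% in the lowest casein bin to 10.6% in the highest, and from 50.6% to 11.3% after thinning.

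Against the low-mitotic milk-expressing cells, 7842 genes had at least 10 CPM in a class, and 639 of them were at least 1.5-fold higher in members (8.15%) and 80 at least 1.5-fold lower (1.02%). The median over all these genes was 0.13 on the log2 scale, so values are to be read against that shift. With TMM scaling (trimmed mean of M-values), which sets it near 0, 414 genes were higher and 182 lower. This contrast is the one the rule used, so the counts that follow describe the members and support nothing.

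The 8 genes of the rule were higher in members by construction. Nusap1, which bundles spindle microtubules, stood at 77.7 (71.8 to 83.97) CPM in members and 7.93 (6.84 to 9.15) CPM in the others. Ube2c stood at 359.9 (347 to 373) and 55.2 (52.2 to 58.3) CPM, Top2a at 387 (374 to 400.4) and 67.3 (64.0 to 70.7) CPM. The smallest gap was that of Cdk1, the mitotic kinase itself, at 205 (195 to 215) and 61.2 (58.05 to 64.4) CPM.

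The other genes of mitotic control were higher almost without exception. Of 25 kinases, cyclins and anaphase-promoting genes, 24 were at least 1.5-fold higher and none lower, with a median log2 ratio of 1.75. Cdc25c, the phosphatase that turns CDK1 on, stood at 16.5 and 2.08 CPM (7.96-fold, 5.702 to 11.3). Plk1, a kinase of mitotic entry, stood at 17.98 and 2.503 CPM (7.19-fold, 5.28 to 9.89), and Ccnb2, a B-type cyclin, at 84.5 and 13.8 CPM (6.13-fold, 5.37 to 7.01). The member under the 1.5-fold mark was Cks1b, a small CDK subunit, at 217 and 183 CPM.

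Spindle genes moved with them, and all 29 kinesin, spindle and cytokinesis genes measured were higher, with a median log2 ratio of 1.79. Kif20a, a kinesin of cytokinesis, had the widest gap at 22.4 and 2.42 CPM (9.28-fold, 6.87 to 12.7). Hmmr, a spindle assembly factor, followed at 70.97 and 8.44 CPM (8.41-fold, 7.15 to 9.92), while Ckap5, which lengthens microtubules, was at 58.3 and 27.8 CPM (2.098-fold, 1.86 to 2.36). Among tubulins, the building blocks of the spindle, 3 of 10 were higher and 1 lower. Tuba1b stood at 836 and 340 CPM, Tubb5 at 1225 and 546 CPM and the centrosomal Tubg1 at 25.7 and 10.1 CPM. Tubb2b was the lower one, at 94.02 and 141 CPM. Tubulin genes are close copies of each other, so reads can be split between them.

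Of 29 centromere, kinetochore and cohesion genes, 28 were higher, with a median log2 ratio of 1.61. Cdca2, a phosphatase partner on mitotic chromosomes, stood at 27.8 and 4.96 CPM, and Cenpa, the histone variant that marks centromeres, at 185 and 36.8 CPM. The cohesin ring gene Smc3 stayed within 1.5-fold at 212 and 153 CPM. Condensin and chromatin genes were higher in 18 of 23, with a median of 1.06. H2afx, a histone variant that marks DNA breaks, stood at 322 and 67.2 CPM, and Hmgb2, an abundant chromatin protein, at 1265 and 350.4 CPM.

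**Figure D3:**
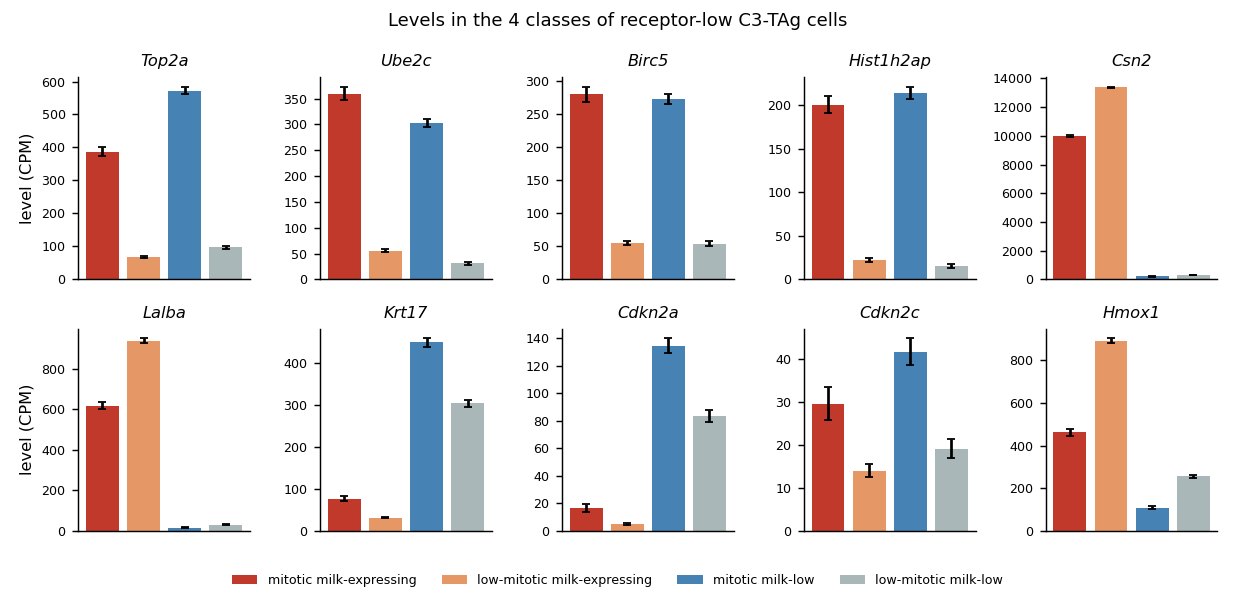
Bars give the level of 10 genes in CPM, each on its own axis from 0, in the 4 classes of receptor-low C3-TAg cells, with exact Poisson 95% intervals. The 4 mitotic and histone markers are high in both mitotic classes, whereas Krt17 and Cdkn2a are highest in mitotic milk-low cells and Csn2, Lalba and Hmox1 in low-mitotic milk-expressing cells.

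Genes of DNA replication differed among themselves. Of 46 measured, 28 were higher and 1 lower, and the median log2 ratio was 0.67. Pclaf, which binds the replication clamp, stood at 505 (490.1 to 521) and 143 (138 to 148) CPM. Tk1, thymidine kinase, stood at 33.3 and 10.5 CPM and Rrm2, a ribonucleotide reductase subunit, at 147 and 58.8 CPM. At the other end of the list lay 3 subunits of the replicative helicase. Mcm2 was at 64.1 and 66.9 CPM (0.957-fold, 0.866 to 1.06), Mcm5 at 114 and 116 CPM (0.981-fold, 0.9104 to 1.06) and Mcm6 at 130.2 and 132 CPM (0.986-fold, 0.919 to 1.06). Their intervals span equal levels on the CPM scale, and with TMM scaling the 3 log2 ratios were -0.20, -0.17 and -0.16. The helicase's other subunits, chosen after their values were seen, were Mcm3 (1.21-fold, 1.13 to 1.30), Mcm4 (1.13-fold, 1.05 to 1.22) and Mcm7 (1.19-fold, 1.102 to 1.28), within the 1.5-fold mark. Gins2, a helicase partner, was the lower gene, at 35.1 (31.2 to 39.4) against 58.3 (55.3 to 61.5) CPM.

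DNA repair genes were higher in 11 of 21, with a median of 0.83. Bard1, the partner of BRCA1, stood at 17.5 and 6.41 CPM.

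The histones made in S phase had the highest median of the lists outside the rule. Of 67 such genes in the matrix, 17 had at least 10 CPM in a class, and 15 of them were higher, with a median log2 ratio of 2.21. Hist1h1b, a linker histone, stood at 329 (317 to 342) CPM in members and 38.05 (35.6 to 40.6) CPM in low-mitotic cells (8.66-fold, 8.03 to 9.35). Hist1h2ap stood at 200.3 (191 to 210.2) and 22.3 (20.4 to 24.3) CPM (8.98-fold, 8.14 to 9.92) and Hist1h1a at 41.8 and 3.52 CPM (11.9-fold, 9.31 to 15.3). Most of these messages lack a poly(A) tail, which the kit primes on, so the levels hold only the part that was primed. Their genes are also near-identical copies, and how multiply mapped reads were treated decides which copy is counted.

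CDK inhibitors were among the genes higher in members. Of 20 CDK inhibitors, D cyclins, Rb and E2F genes, 9 were higher and 1 lower. Cdkn2c, the INK4 inhibitor p18, stood at 29.4 (25.9 to 33.4) and 14.0 (12.5 to 15.6) CPM (2.104-fold, 1.78 to 2.49), and Cdkn2d, p19, at 26.7 and 10.6 CPM (2.53-fold, 2.097 to 3.04). Cdkn3, a phosphatase that acts on CDKs, stood at 33.8 and 6.57 CPM, and E2f8, a repressing E2F, at 37.9 and 12.6 CPM. Ccnd1, cyclin D1, was the lower one, at 22.2 and 33.8 CPM (1.52-fold lower, 1.295 to 1.797). Cdkn2a, which encodes p16 and p19ARF, stood at 16.3 and 5.01 CPM, but 27 members had any Cdkn2a UMI and 5 of them held 56.3% of the class's UMIs. Without the 5 cells with the most Cdkn2a UMIs in each class, the levels were 7.12 and 3.14 CPM. Of 17 measured p53 pathway genes, Gadd45b was higher, at 42.1 and 27.9 CPM, and Trp53inp1 lower, at 38.6 and 60.2 CPM. Trp53 itself stood at 157 and 118 CPM.

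Milk genes outside the rule were lower or within 1.5-fold in members. Of 17 measured, 8 were lower and none higher, and the list's median was -0.58 on the log2 scale. Wap, the whey acidic protein, stood at 42.4 (38.05 to 47.03) CPM in members and 124 (119.9 to 129) CPM in low-mitotic cells (2.94-fold lower, 2.63 to 3.29). Glycam1, a mucin-like milk protein, stood at 209 (199.5 to 219) and 556 (546 to 565) CPM (2.66-fold lower, 2.53 to 2.79), and Spp1, osteopontin, at 1945 and 3348 CPM (1.72-fold lower, 1.69 to 1.75). The widest gap was that of Lao1, an amino acid oxidase of milk, at 11.3 and 45.6 CPM (4.02-fold lower, 3.25 to 5.02). Muc15 and Ltf, lactoferrin, did not follow them, with 364 and 288 CPM and 1976 and 1736 CPM. Among the caseins Csn1s2a was past 1.5-fold, at 4498 and 7444 CPM, and Csn1s1 nearest to equal, at 5783 and 6742 CPM.

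Other secretory genes went the same way, with 4 of 17 lower and none higher. Saa1 and Saa2, acute phase proteins whose genes are close copies, stood at 116 against 362 CPM and 66.98 against 280.3 CPM. Hp, haptoglobin, and Pigr, which carries antibodies into milk, were the other two, at 10.9 against 26.6 CPM and 43.8 against 71.3 CPM. Of the 20 antioxidant genes under NRF2, Hmox1, which breaks down haem, was lower at 461 against 891 CPM, and Fth1, the ferritin heavy chain, at 3810.2 against 6357 CPM. The desaturase Scd1 stood at 78.2 against 177 CPM and was the 1 lipid synthesis gene of 16 past the mark.

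Many programs did not differ by 1.5-fold. None of 14 glycolysis genes, 34 nuclear-encoded respiratory chain genes, 24 Myc and ribosome biogenesis genes and 80 cytosolic ribosomal protein genes was past the mark in either direction. Of 21 progenitor and alveolar regulators, 4 were higher and none lower: Creb5, Id2, Notch1 and Bcl11a. Id2, an inhibitor of differentiation factors, stood at 154 and 90.01 CPM. Sox9, the progenitor factor whose reporter all the animals carried, stood at 346 (333 to 358) CPM in members and 295 (288 to 302) CPM in low-mitotic cells. Vtcn1, the T cell ligand B7x, stood at 10.02 (7.98 to 12.4) and 10.3 (9.01 to 11.6) CPM, intervals that overlap. Other lists had genes past the mark, beside 8.15% of all genes higher. Higher were 5 of 15 cytokine and NF-kB genes and 2 of 3 basal and stress keratins. So were 4 of 23 immediate early genes and 3 of 12 immune ligand and class I presentation genes. None of these 4 lists had a lower gene. Of 13 interferon genes 5 were higher: Rsad2, Ifit1, Isg15, Irf1 and Rtp4. All Rsad2 UMIs of the members came from 5 cells and 98.6% of those of Ifit1, which without the top 5 cells of each class stood at 0.362 and 0.764 CPM. Isg15 stood at 14.8 and 15.3 CPM without its top 5 cells.

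**Figure D4:**
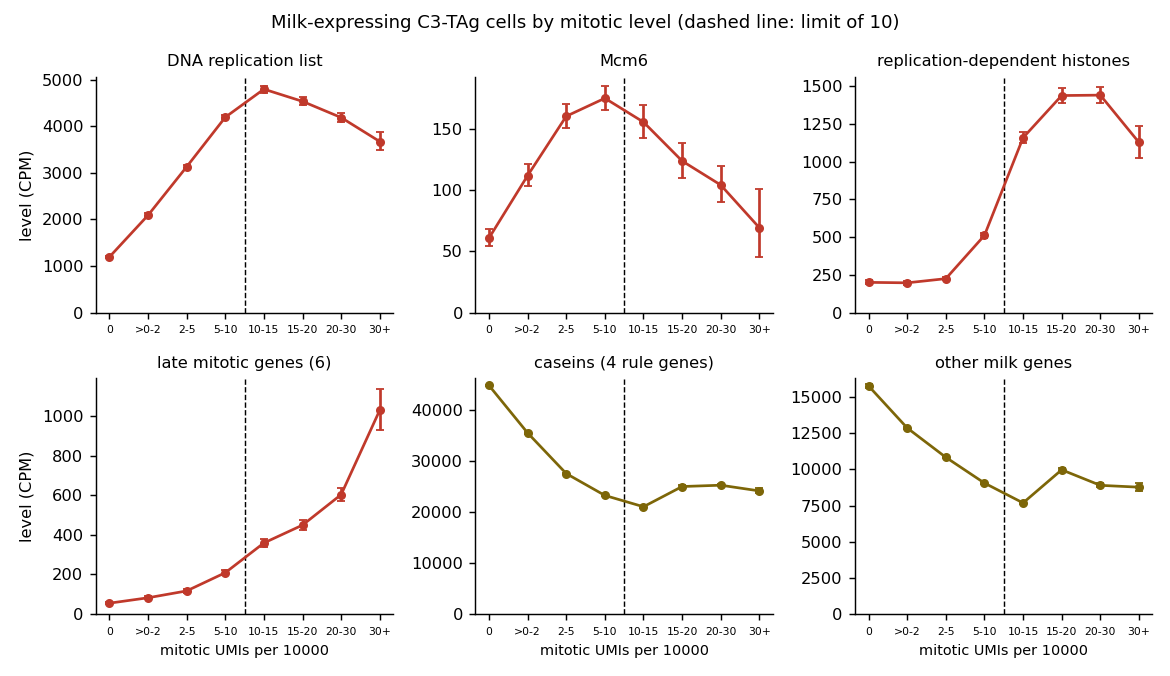
Milk-expressing C3-TAg cells are grouped by mitotic UMIs per 10000 (x axis), and each panel gives the summed level in CPM of a gene list or gene, with exact Poisson 95% intervals. Replication genes peak at 10 to under 15 and Mcm6 at 5 to under 10, and histones are high from 10 on. The 6 genes called late climb throughout, and summed caseins are lowest at 10 to under 15.

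The programs peaked at different values of the mitotic score. The 2627 milk-expressing cells were put into bins from 0 to 30 and more mitotic UMIs per 10000, with 28 to 542 cells each. The replication list rose from 1195 CPM in the 530 cells with no mitotic UMI to 4193 CPM at 5 to under 10 and 4795 CPM at 10 to under 15, and was 3671 CPM (3483 to 3867) in the top bin. Mcm6 was highest at 5 to under 10, at 175 CPM, and fell to 69.4 CPM (45.7 to 101) in the top bin. Ccne2, an S phase cyclin, was highest at 10 to under 15, at 33.1 CPM. Histones stayed near 200 CPM up to 5 mitotic UMIs per 10000, stood at 512 CPM at 5 to under 10 and at 1159 CPM at 10 to under 15, reached 1441 CPM at 20 to under 30 and stood at 1128 CPM (1025 to 1238) in the top bin.

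The genes of late mitosis climbed to the end. Plk1 went from 7.91 CPM at 10 to under 15 to 77.1 CPM in the top bin, and Hmmr from 48.6 to 157 CPM. Replication genes thus stood at nearly the level of the members in cells below the limit, at 5 to under 10, where histones stood lower than in any bin of members. In that bin 57 of 490 cells (11.6%) were called doublets, against 1.89 to 3.69% in the lower bins and 2.19 to 10.9% in the bins of members, and their part in its levels was not tested. The bins were made from the 8 genes of the rule. Depth moved with them, from a median of 8951 UMIs in the lowest bin to 14355 at 20 to under 30 and 12725 in the top bin, and its part in these levels was not tested.

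Casein levels in CPM were highest in cells with no mitotic UMI, whereas median casein UMIs per cell showed no such fall. The 2 measures are unlike, because summed levels follow the mean, in which cells with much casein weigh more. Mean casein UMIs per cell were 341 in members and 365 in low-mitotic milk-expressing cells. The medians thus do not show that mean casein per cell was level over the bins. The summed caseins stood at 44859, 35540, 27555 and 23265 CPM in the 4 bins below the limit and at 21043, 25012, 25271 and 24151 CPM in the 4 bins of members. In the same order, the median casein UMIs per cell were 219, 255, 223 and 232.5, then 221, 197, 238 and 234. The part of the larger total UMIs in the fall in CPM was not tested. The median casein share per cell went from 2.52% in the lowest bin to 1.83% at 5 to under 10 and 1.55% at 10 to under 15, and was lowest in the 28 cells of the top bin, at 1.30%. Other milk genes went from 15772 CPM in the lowest bin to 7679 CPM at 10 to under 15 and 8768 CPM in the top bin. Among the members, the mitotic score and the casein share had correlations near 0 (Pearson 0.04, Spearman 0.06, 567 cells of 1 library, shared total UMIs). The rule cut the members on both scores, which narrows their ranges, so these values cannot show whether the scores are related. Casein and the other milk genes went together over the members (Pearson 0.63, Spearman 0.55). Krt14, a keratin of basal and progenitor cells, went from 330 CPM in the lowest bin to 568 CPM in the top bin.

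Members differed widely among themselves. Per 10000 UMIs, the replication list ran from 2.34 to 118 with a median of 42.1, and the histones from 0 to 75.9 with a median of 9.33 and 42 cells at 0. Caseins ran from 50.01 to 1134 with a median of 161. The replication list and the 6 genes called late (Ccnb2, Cdc20, Plk1, Aurka, Hmmr and Cenpe, chosen after their values were seen) went against each other over the members (Pearson -0.40, Spearman -0.43). Replication and histones went together (0.33 and 0.34).

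The members were therefore also described by both sets, in cells thinned to 5000 UMIs, with at least 2 UMIs of a set as present. Of 561 members with that depth, 188 had histones only, 33.5% (29.6 to 37.6%), 220 had both, 39.2% (35.2 to 43.4%), 77 had late genes only, 13.7% (10.99 to 16.86%), and 76 had neither, 13.5% (10.8 to 16.7%). The subsets are cuts of counts and not phases. In cells with late genes only, the replication list stood at 2864 CPM, Ube2c at 556 CPM and Top2a at 259 CPM. In cells with histones only it stood at 5060 CPM, with Ube2c at 277 CPM and Top2a at 419 CPM. The cells with neither set had 5134 CPM of the replication list and the highest Mcm6, 220 CPM, against 65.4 CPM in cells with late genes only.

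Milk transcripts were found in all 4 subsets. Csn2 stood at 9197 CPM in cells with histones only, 10707 CPM with both, 11258 CPM with late genes only and 8641 CPM with neither. Lalba, the milk protein alpha-lactalbumin, stood at 624, 707, 408 and 540 CPM in the same order. Casein medians were 1.46%, 1.69%, 1.90% and 1.38%. Among these cells, which had all passed the milk limit, those with the genes called late thus had no lower casein median than the others. Because the limit left out cells with less casein, this cannot show whether casein is kept in such cells.

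Against the 1465 mitotic cells of the milk-low class, the members were close in cell cycle genes and apart in milk, matrix and cytokine genes. Of 8370 genes with at least 10 CPM in a class, 539 were at least 1.5-fold higher in members (6.44%) and 1611 at least 1.5-fold lower (19.2%). The median of all was -0.21 on the log2 scale, and with TMM scaling 933 genes were higher and 939 lower. These 2 classes were parted by casein share, so this too is a description. After thinning to 2000 UMIs, 15.6% of the milk-low cells had a Cdkn2a UMI and 28.8% a Krt17 UMI, against 1.41% and 5.11% of members. A median of 10717 UMIs per cell stood against 13070 in members.

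The cell cycle lists were close to equal or somewhat lower in members on the CPM scale, where the median of all genes was lower too. Birc5 stood at 279.6 (268 to 291) and 272 (265 to 280.1) CPM, Hist1h2ap at 200.3 (191 to 210.2) and 214 (207 to 221) CPM and Ube2c at 359.9 (347 to 373) and 303 (295 to 311) CPM. Of 17 histones none was past 1.5-fold lower and 1, Hist1h3d, was higher. Of the kinases, cyclins and anaphase-promoting genes 6 of 25 were lower, of the replication genes 7 of 46 and of the centromere genes 3 of 29, and none was higher. The kinesin and cytokinesis list had 10 of 29 lower. Over all compared genes 19.2% were lower and 6.44% higher, so the counts of the first 3 lists are near or below the share of all. The list medians were -0.31 for the kinases and cyclins, -0.44 for the kinesins and -0.29 for replication, and -0.11, -0.23 and -0.09 with TMM scaling. Anln, a scaffold of the cleavage ring, stood at 87.7 CPM in members and 241 CPM in milk-low cells (2.75-fold lower, 2.54 to 2.98), Kif23, a kinesin of the central spindle, at 53.3 and 123 CPM (2.31-fold lower, 2.08 to 2.56), and Foxm1, an activator of mitotic genes, at 24.6 and 48.8 CPM (1.98-fold lower, 1.70 to 2.32).

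Milk genes outside the rule were higher in 15 of 17, with a median log2 ratio of 3.21. Lalba stood at 617 (599.8 to 634) CPM in members and 14.6 (12.9 to 16.5) CPM in milk-low cells (42.2-fold, 37.2 to 48.1). Spp1 stood at 1945 and 90.4 CPM (21.5-fold, 20.4 to 22.7), and Btn1a1, butyrophilin of the milk fat globule, at 52.5 and 3.77 CPM (13.9-fold, 10.7 to 18.4). Of 24 progenitor and alveolar regulators, 8 were higher and 9 lower. Among the higher ones, Elf5, the alveolar fate factor, stood at 225 and 65.4 CPM, Gata3, a luminal factor, at 260.1 and 104 CPM and Stat5a at 20.03 and 8.93 CPM. Sox9 was lower in members, at 346 against 545 CPM (1.58-fold lower, 1.51 to 1.64), as was Sox11, a fetal mammary factor, at 7.48 against 66.1 CPM.

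The metabolic lists differed among themselves, and stand beside 6.44% of all compared genes higher and 19.2% lower. The NRF2 list had 13 of 20 higher and none lower, with Hmox1 at 461 and 109 CPM and Pgd, of the pentose phosphate pathway, at 135 and 64.7 CPM. The glycolysis list had 9 of 14 higher and none lower, with Ldha, lactate dehydrogenase, at 616 and 312 CPM. The nuclear-encoded respiratory chain had 2 of 34 higher, Atp5g1 and Atp5c1, and none lower, and fatty acid and sterol synthesis 4 of 18 higher and 4 lower. The 4 higher ones were Thrsp, Scd1, Acaca and Fasn, and Dhcr7 and Elovl6 were among the lower ones. Of the secretory and antimicrobial list 9 of 16 were higher, among them Lcn2, which binds bacterial iron carriers, at 2328 and 739.6 CPM. Wfdc2, a protease inhibitor, was 1 of the 2 lower ones, at 39.8 and 194 CPM.

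Most cytokine and matrix genes were lower in the members. Of 16 cytokine and NF-kB genes 14 were lower, with a median log2 ratio of -1.24, among them Cxcl1, which draws neutrophils, at 109 and 546 CPM (5.03-fold lower, 4.696 to 5.39). All 9 measured mesenchymal and matrix genes were lower, with a median of -1.95. Ctgf, a YAP target, stood at 97.03 and 617 CPM (6.36-fold lower, 5.92 to 6.84) and Fn1, fibronectin, at 13.3 and 107 CPM (8.03-fold lower, 6.62 to 9.83). Of 23 immediate early genes 14 were lower and 1 higher, and these genes also respond to tissue dissociation. Of 16 heat shock and chaperone genes 2 were lower, Hspb1 and Dnajb1, and the list's median was -0.07. Atf3 stood at 303 and 996 CPM and Socs3, the higher one, at 90.6 and 30.2 CPM.

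Of 22 CDK inhibitors, D cyclins, Rb and E2F genes, 8 were lower and none higher. Cdkn2a stood at 16.3 (13.7 to 19.3) CPM in members and 134 (129 to 140) CPM in mitotic milk-low cells (8.25-fold lower, 6.93 to 9.89), and Cdkn1a, p21, at 114 and 396 CPM (3.47-fold lower, 3.24 to 3.72). Of 19 p53 pathway genes 9 were lower, with Pmaip1, the death-promoting NOXA, at 5.79 and 57.0 CPM (9.84-fold lower, 7.36 to 13.4), and 1 was higher, Trp53inp1, at 38.6 and 17.2 CPM. Krt17, a stress keratin, stood at 75.9 and 449 CPM (5.91-fold lower, 5.45 to 6.42), but Krt14 at 529 and 387 CPM, within 1.5-fold.

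**Figure D5:**
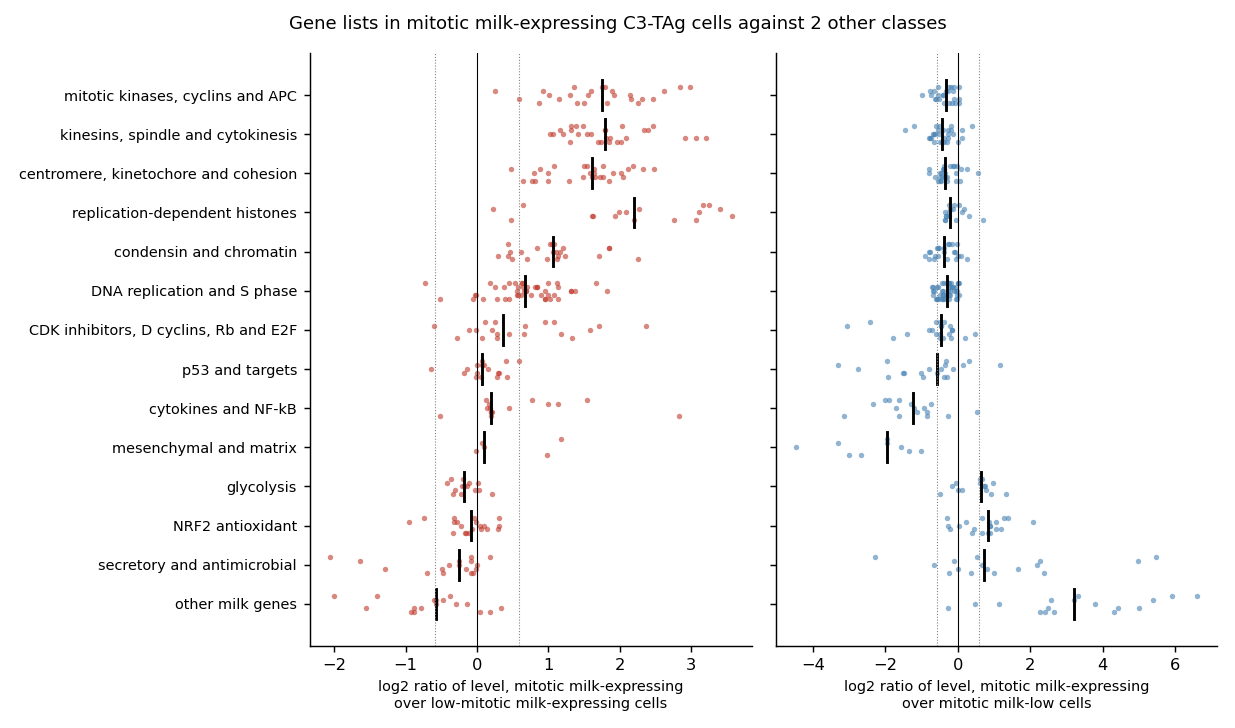
Each point is a gene with at least 10 CPM in a class, placed by its log2 ratio in mitotic milk-expressing cells over low-mitotic milk-expressing cells (left) and over mitotic milk-low cells (right), with list medians as black bars and 1.5-fold marks dotted. Cell cycle lists lie to the right of 0 on the left and near 0 on the right, where the other milk genes have a median of 3.21 and the mesenchymal genes one of -1.95.

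The gap between mitotic and low-mitotic cells was also measured in cells below the milk limit. Of 8274 genes with at least 10 CPM in either milk-low class, 512 were at least 1.5-fold higher in the mitotic one (6.19%) and 139 lower (1.68%), with a median of 0.10 over all. The 29 kinesin and spindle genes had a median log2 ratio of 1.90 there, against 1.79 between the milk-expressing classes, and the kinases and cyclins 1.77 against 1.75. The histones had 2.54 and 2.21, over 16 and 17 genes. The replication list had 0.30, with 14 of 46 higher and 3 lower, against 0.67 with 28 higher and 1 lower. Mcm6 had a log2 ratio of -0.62 in milk-low and -0.02 in milk-expressing cells, and Pclaf 1.25 and 1.82. Hmox1 had -1.22 and -0.95, and Fth1 -0.66 and -0.74, lower in mitotic cells in both. Milk genes outside the rule had 6 of 11 lower in milk-low cells, with a median of -0.60, against 8 of 17 and -0.58. The secretory and antimicrobial list had 7 of 14 lower there, with a median of -0.60, against 4 of 17 and -0.25. No gene of these 2 lists was higher in either contrast. Whether the 2 contrasts differ was not tested. The comparison of members with mitotic milk-low cells shares a class with each of them.

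Called doublets and depth moved with the class. Scrublet called 44 of the 567 members (7.76%), 4.81% of low-mitotic milk-expressing cells and 4.37% of mitotic milk-low cells, and a droplet holding a milk-expressing and a mitotic cell would meet the rule. Without called doublets 523 of 2484 milk-expressing cells were mitotic, 21.1%, and 716 genes were higher and 98 lower than in low-mitotic cells. No member shared its barcode with the WT library, whereas 20 barcodes in all stood in both. Uncalled doublets were not tested. Markers of immune, fibroblast and endothelial cells were near 0. The 10 immune markers summed to 5.79 CPM in members and 5.85 CPM in low-mitotic cells, with 4 of 10 at 0 UMIs, Ptprc among them. The 8 fibroblast markers summed to 3.50 and 2.29 CPM with 5 at 0, the 8 endothelial markers to 4.83 and 4.37 CPM with 3 at 0, and the 10 basal markers to 20.6 and 23.8 CPM with 2 at 0. In mitotic milk-low cells the basal markers summed to 91.2 CPM, with both measured ones, Mylk and Tagln, lower in members. The hormone-sensing markers summed to 114 CPM in members and 232 CPM in those cells, with all 4 measured ones lower (Prom1, Areg, Ly6a and Wnt4). The hormone-sensing list holds Areg, Pgr, Esr1 and Cited1, which the rule limited in both classes, so its sum and count are a description only. The differences in basal and hormone-sensing markers go with those in matrix genes and keratins, and their part in them was not tested.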

How the data were processed

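The files held UMI counts per gene and cell that the authors deposited as 1 matrix per group. Cell Ranger 3.1.0 and the mm10 build are named in the submitters' processing notes, with no statement on multiply mapped reads. The libraries held 91932121 UMIs (C3-TAg) and 91133082 UMIs (WT), with medians of 8397 and 9670 per barcode.

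The members, lists and tests were chosen with earlier results of these data known. Counts were summed over the cells of a class and divided by the class total, with no clustering. A gene was compared with at least 10 CPM in a class and called at 1.5-fold either way. Named genes were those of the rule, the 5 markers, Sox9 and Vtcn1, the 15 genes at each end of the ratio with at least 50 CPM, and up to 6 at each end of every list. Cdc20, Cenpe and Aurka, and Lalba against low-mitotic cells, were chosen after their values were seen. Called doublets (Scrublet in scanpy 1.11.5) were kept. The computing used scipy 1.17.1, numpy 2.4.6 and pandas 2.3.3 under Python 3.11.15, with scikit-learn 1.9.0 and matplotlib 3.10.9. Poisson counts were simulated around the pooled levels for the comparison of members with low-mitotic cells, over 7479 genes. There 100% of 100 genes changed 2-fold were called and 0.0137% of unchanged genes. The simulation had no spread between cells beyond counting error and no choice of cells by their genes. It thus checks the computing and gives no rate of false calls for these data. Alternatives covered doublets, both limits, depth, mitochondrial and receptor limits, TMM scaling, cell weights and the filter on low counts.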

Additional observations from a re-analysis of the deposited data

How the results depend on the processing

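No paired analysis was possible because each group was 1 library. The mitotic share was lower in milk-expressing than in milk-low cells under each of the 10 alternatives run. Against 21.6% and 41.9%, the shares were 40.2% and 57.4% with a mitotic limit of 5 per 10000, 6.28% and 18.9% with a limit of 20, 9.51% and 30.8% with cells from 5 to under 20 left out, 19.8% and 40.1% with a milk limit of 1%, and 29.2% and 45.0% after thinning to 2000 UMIs. A mitochondrial limit of 5% moved the first to 24.4%, and a minimum of 5000 UMIs the second to 45.0%.

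Of 639 genes higher than in low-mitotic cells, the count became 1322 with cells from 5 to under 20 left out, 414 with TMM scaling, 187 with a filter of 50 CPM and 1158 with one of 2 CPM. The 80 lower genes became 167 with a limit of 20, 214 with cells from 5 to under 20 left out, 234 after thinning, 182 with TMM scaling, and 29 and 250 under those filters. Against mitotic milk-low cells, 539 higher became 933 with TMM scaling, and 225 and 910 under the filters, and 1611 lower became 939, 678 and 2471. The medians of the 19 list results past 1.5-fold kept their direction in all 228 values. These include the rule's mitotic genes against low-mitotic cells and its caseins against mitotic milk-low cells, whose direction the rule fixed. Named genes likewise include genes of the rule and genes picked at the ends of these ratios, so both counts are partly set by the choice. Of 1363 values of the named genes past that mark, 7 reversed. Rsad2 went to log2 -2.84 with a limit of 20, -0.80 with cells from 5 to under 20 left out and -3.28 after thinning. Ifit1 went to -0.44 with a limit of 20 and, in an alternative chosen after seeing the data, to -1.08 without its 5 top cells, as did Isg15 to -0.041. Against mitotic milk-low cells Hist1h3d went to -0.029 after thinning. The limits, fold mark and CPM filters set these counts by construction, and the cause of the other moves was not tested. Depth limits genes near 10 CPM, and with 1 library per group no spread between animals was measured.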
